A study of Sus scrofa with 6 samples.

Results

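The 74 genes described here encode proteins of the cytoplasmic and the mitochondrial ribosome, and they were taken by symbol from the 17950 genes of the deposited table. A gene was a member when its Ensembl pig name, or its name in the study's own gene tables, began with *RPL* or *RPS* and a digit, or with *RPLP*, *RPSA*, *MRPL* or *MRPS*, with the *RPS6K* kinases left out. This gave 14 genes of the cytoplasmic large subunit, 15 of the cytoplasmic small subunit, 31 of the mitochondrial large subunit and 14 of the mitochondrial small subunit. The names of 3 members (*RPL23*, *RPL26* and *MRPL1*) came from the study's tables only, which list genes it called changed or found in 1 group alone. These 3 were therefore included with their difference, and counts of whole lists without them are given beside the results. Only 10757 of the 17950 genes carry a symbol, so the members are the ribosomal protein genes that carry a name and not all such genes of the pig.

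The cells were primary granulosa cells (GCs), the somatic cells that surround the oocyte, taken from follicles of pre-pubertal Landrace gilts and cultured with serum. In the pLVX-*RBP4* group they were infected for 72 h with a lentivirus that carried porcine *RBP4*, the carrier protein of retinol, in the vector pLVX-IRES-ZsGreen. The CTRL group received the same vector with the green fluorescent protein and without *RBP4*, so infection and reporter were shared by both groups. There were 3 libraries per group, described as biological replicates, but the table holds 1 value per gene and group, an FPKM (fragments scaled to transcript length and to mapped fragments) made by the authors from the 3 libraries.

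With 1 value per group the spread between libraries is not known, no test between the groups could be computed, and the depth behind each value cannot be read from the table. The study lists more mapped reads for each pLVX-*RBP4* library than for any CTRL library, and how depth bears on the values was not tested. All comparisons below are therefore descriptions of 2 pooled values per gene. The study compared the same libraries with Cuffdiff, and its enriched terms name *RPL23*, *RPL26*, *RPL26L1*, *MRPL50* and *MRPL52* among its differentially expressed genes. Its stated criteria include a fold change of at least 2, while the values used here gave these genes ratios from 1.36 to 1.58. *MRPL1* is not named in those terms. It was named from the study's tables and had values in both groups, which places it with the genes called changed. The study also reports ribosomal subunit terms for its upregulated genes. The change of a gene is given as the log2 difference, which is log2(FPKM + 1) in the pLVX-*RBP4* group minus that in the CTRL group, and where a pair of FPKM values is given the CTRL value comes first. *RBP4* itself (ENSSSCG00000010479) had 1.105 FPKM in CTRL and 92.3 FPKM in pLVX-*RBP4* GCs, so the column names and the labels go together.

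Ribosomes are made of a large subunit, which joins amino acids and holds the tunnel through which the new protein leaves, and a small subunit, which reads the messenger RNA. The cytoplasmic ribosome translates nuclear transcripts, and its proteins are among the most abundantly transcribed genes of growing cells. The mitochondrial ribosome translates the few messages of mitochondrial DNA, which encode respiratory chain subunits, and all of its proteins are encoded in the nucleus and imported. Each protein is present once in a ribosome in most cases, and in steroid-producing cells such as GCs the respiratory chain is found in the same organelle as the first step of steroid synthesis.

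The labelled cell type was checked with markers. Of 10 granulosa cell markers 4 were found by symbol, and all 4 were above 0 in both groups, with *CYP11A1*, the enzyme of the first step of steroid synthesis, at 673 and 669 FPKM in the CTRL and pLVX-*RBP4* groups. The FSH receptor gene *FSHR* had 9.99 and 8.47 FPKM, *INHA* 28.6 and 27.5 FPKM, and *FST* 20.5 and 24.7 FPKM, so the 4 markers did not differ in 1 direction. *FOXL2*, *CYP19A1*, *AMH*, *INHBA*, *HSD3B1* and *STAR* were not found by symbol. Of the markers of other cells, 3 of 4 stromal genes were found and their sum was 243 FPKM in CTRL GCs and 292 FPKM in pLVX-*RBP4* GCs. Most of this sum was *DCN*, with 169 and 210.1 FPKM, while *COL1A2* had 61.5 and 71.1 FPKM and *PDGFRA* had 12.6 and 11.2 FPKM. The 3 leukocyte markers summed to 5.26 and 6.11 FPKM, and the endothelial marker *PECAM1* had 16.3 and 16.0 FPKM. The epithelial marker *EPCAM* was at 0.325 and 0.199 FPKM, and the theca cell marker *INSL3* was listed at 0 and 0.292 FPKM. *CYP17A1*, *VWF*, *CDH5*, *CDH1* and *COL1A1* were not found by symbol, so theca, endothelial and epithelial cells were each read from 1 marker. In such bulk samples more cells of a type and more RNA per cell cannot be told apart, and the part of the stromal difference in the results below was not tested.

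All 74 members passed the limit of a mean FPKM of at least 1 that was set for comparisons, and 72 of them had the higher value in the pLVX-*RBP4* group. Among all 12382 genes past this limit, 50.2% had the higher value there. The median log2 difference was 0.28 for the cytoplasmic large subunit, 0.18 for the cytoplasmic small subunit, 0.25 for the mitochondrial large subunit and 0.20 for the mitochondrial small subunit, against 0.0014 for all genes. No member was at least 1.2-fold lower in the pLVX-*RBP4* group, which 8.63% of all genes were, and 32 members were at least 1.2-fold higher, which 11.0% of all genes were. Without the 3 members named from the study's tables, 29 of 71 were at least 1.2-fold higher and the median over all members was 0.24.

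Levels were described first, since FPKM is scaled to transcript length. Most ribosomal proteins are short and transcript lengths were not analysed, so how well levels compare between genes was not tested. In the CTRL group the median level was 1071 FPKM over the 29 cytoplasmic members and 28.5 FPKM over the 45 mitochondrial members, a ratio of 37.6. In the pLVX-*RBP4* group the medians were 1192 and 31.9 FPKM, with a ratio of 37.4. The distance between the levels of both ribosomes was thus nearly equal in the groups.

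The cytoplasmic members formed a high and a low range. The 25 genes named after a core protein lay between 292 and 4112 FPKM in the CTRL group and between 319 and 5150.4 FPKM in the pLVX-*RBP4* group. The other 4, *RPL26L1*, *RPL36AL*, *RPL7L1* and *RPS27L*, are related copies of core genes, and they lay between 14.0 and 37.7 FPKM in the CTRL group. No cytoplasmic member lay between 37.7 and 292 FPKM there. Although most proteins of a ribosome are used in equal number, the core genes spanned a 14.1-fold range in the CTRL group, with a coefficient of variation of 68.8%, and 68.6% in the pLVX-*RBP4* group. Ribosomal protein genes have many near-identical copies in the genome, and how the authors' counting divided reads between copies is not known, which limits the level of each gene.

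**Figure D1:**
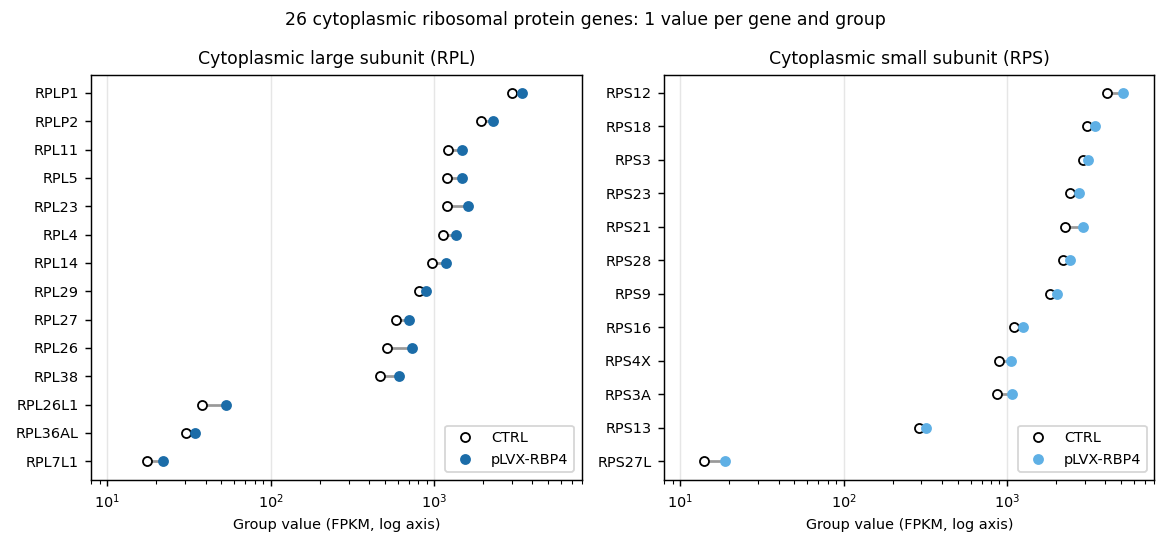
Values of 26 of the 29 cytoplasmic ribosomal protein genes, with 1 row per gene, FPKM on a log axis, open circles for the CTRL group and filled circles for the pLVX-RBP4 group; each circle is the authors' value for a group, with no error. In every row the filled circle lies to the right, and the related copies RPL26L1, RPL36AL, RPL7L1 and RPS27L lie between 14.0 and 53.5 FPKM, far below the others.

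In the cytoplasmic large subunit all 14 members were higher in the pLVX-*RBP4* group, and 10 were at least 1.2-fold higher. The count depends on where the limit lies and on the scaling. Past 1.1-fold were 14 members, as were 25.0% of all genes, and past 1.3-fold were 4, as were 4.86% of all genes. Near the 1.2-fold limit, *RPL4* with a log2 difference of 0.27 was just inside and *RPLP2* with 0.25 just outside. After scaling to a common upper quartile 5 members were at least 1.2-fold higher, beside 8.65% of all genes. Rescaling to a common sum without the gene of the highest value gave 4, beside 5.06% of all genes, while all 14 were higher under each of the 4 scalings tried. Without *RPL23* and *RPL26*, 8 of 12 were at least 1.2-fold higher and the median log2 difference was 0.27.

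*RPL26* (ENSSSCG00000028850), which encodes a protein near the exit of the peptide tunnel, had 516 FPKM in CTRL and 733 FPKM in pLVX-*RBP4* GCs. Its log2 difference of 0.51, a ratio of 1.42, was the highest of the cytoplasmic members and ranked 271st among the 12382 genes. *RPL26* was a member through the study's tables only, so this place follows in part from how it was included. Its related copy *RPL26L1* (ENSSSCG00000016989) had 37.7 and 53.5 FPKM, a log2 difference of 0.49. The level of *RPL26* was 13.7 times that of *RPL26L1* in both groups, and their ratios between the groups were 1.42 and 1.42. Whether reads of the abundant gene were counted for the copy was not tested, and the sum of both was 553 and 787 FPKM.

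*RPL23* (ENSSSCG00000021590), a protein of the face that joins the small subunit, had 1194 and 1624 FPKM, a log2 difference of 0.44. *RPL38* had 464 FPKM in CTRL GCs and 608 FPKM in pLVX-*RBP4* GCs, a log2 difference of 0.39. Both lay above the middle of their list, *RPL23* at a high level and *RPL38* at the lowest level of the 11 core genes of the large subunit.

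*RPL5* and *RPL11* bind the 5S ribosomal RNA together and are known for holding back MDM2, the ligase that marks p53 for degradation, when ribosome assembly is disturbed. *RPL5* had 1208 FPKM in CTRL and 1485 FPKM in pLVX-*RBP4* GCs, a log2 difference of 0.30. *RPL11* had 1225 and 1480.0 FPKM, a log2 difference of 0.27. The pair thus had nearly equal levels in each group and nearly equal differences. *RPL4*, whose protein lines the peptide tunnel, had 1130.3 and 1359 FPKM, *RPL14* had 977 and 1192 FPKM, and *RPL27* had 581 and 704 FPKM, with log2 differences from 0.27 to 0.29.

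The stalk proteins recruit the elongation factors to the ribosome. *RPLP1*, with 3020.1 FPKM in CTRL GCs and 3472 FPKM in pLVX-*RBP4* GCs, had the highest level of the large subunit and a log2 difference of 0.20. *RPLP2*, its partner, had 1934 and 2299.7 FPKM, a log2 difference of 0.25. These acidic proteins are present in more than 1 copy per ribosome, unlike the others, and they took the first and second place by level in their list. *RPLP0*, which anchors them, was not found by symbol.

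The smallest differences of the large subunit belonged to *RPL29*, with 809.7 and 893 FPKM and a log2 difference of 0.14, and to *RPL36AL*, with 30.2 and 34.6 FPKM and 0.19. *RPL7L1*, a relative of *RPL7* that is known as a factor of ribosome assembly and not as a core protein, had 17.5 and 21.8 FPKM, a log2 difference of 0.31. The related copies thus lay at both ends of the list, with *RPL26L1* second and *RPL36AL* 13th of 14.

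In the cytoplasmic small subunit all 15 members were higher in the pLVX-*RBP4* group and 5 were at least 1.2-fold higher. The differences were on the whole smaller than in the large subunit, with a median log2 difference of 0.18 against 0.28, and whether the subunits differ was not tested. Rescaling to a common sum without the gene of the highest value left 1 member at least 1.2-fold higher, near the 5.06% of all genes under this scaling. It left 13 of 15 higher, with *RPS3* among those that were lower, while the other 3 scalings left all 15 higher.

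*RPS12*, with 4112 FPKM in CTRL and 5150.4 FPKM in pLVX-*RBP4* GCs, was the most abundant of all members, and its log2 difference was 0.32. *RPS18* had 3079 and 3468 FPKM, a log2 difference of 0.17. *RPS3*, which lies where the messenger RNA enters and also has a role in DNA repair, had 2908 and 3129 FPKM, a log2 difference of 0.11. The 3 most abundant genes of the small subunit thus ranged from 1.08-fold to 1.25-fold.

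Among the largest differences of the list were those of *RPS27L* and *RPS21*. *RPS27L*, a p53-responsive relative of *RPS27*, had 14.0 FPKM in CTRL GCs and 18.7 FPKM in pLVX-*RBP4* GCs, a log2 difference of 0.40 at the lowest level of the list. *RPS21* had 2284 and 2921 FPKM, a log2 difference of 0.35. *RPS3A*, with 876 and 1074 FPKM and a log2 difference of 0.29, was also past 1.2-fold.

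Differences were smaller for other genes. *RPS13*, at the lowest level of the core genes, had 292 FPKM in CTRL and 319 FPKM in pLVX-*RBP4* GCs, a log2 difference of 0.13. *RPS4X*, the X-linked form of this protein, had 892 and 1059 FPKM, a log2 difference of 0.25, and *RPS23*, a protein of the decoding centre, had 2417 and 2749.7 FPKM, a log2 difference of 0.19. *RPS9*, *RPS16* and *RPS28* had between 1101 and 2212 FPKM in the CTRL group and log2 differences from 0.14 to 0.18.

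The background at the level of these genes differs from that of all genes. Among the 1092 genes whose mean was 100 FPKM or more, 67.1% were higher in the pLVX-*RBP4* group and 15.8% were at least 1.2-fold higher, with a median log2 difference of 0.084. Of the 306 genes of 300 FPKM or more that are no members, a limit chosen after seeing the data, 20.6% were at least 1.2-fold higher and the median was 0.088, and 136 of the 306 have no symbol, so that unnamed ribosomal protein genes may be among them. Against this, 8 of 11 core genes of the large subunit were at least 1.2-fold higher, with a median of 0.28. Among these 8 were *RPL23* and *RPL26*, members through the study's tables only. Without them 8 of 12 members of the large subunit, related copies included, were at least 1.2-fold higher. In the small subunit it was 4 of 14 core genes, or 28.6%, with a median of 0.18. This share lay near the 20.6% of the 306 genes and further from the 15.8% of genes of 100 FPKM or more. Of the 136 genes without a symbol 26.5% were at least 1.2-fold higher, with a median of 0.16.

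**Figure D2:**
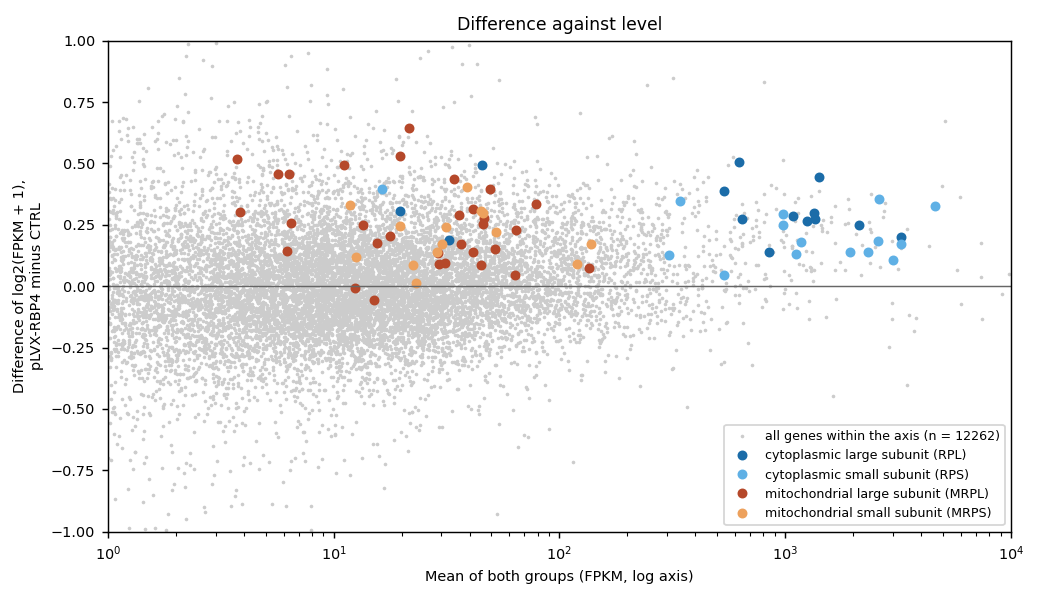
Log2 difference (pLVX-RBP4 minus CTRL, vertical axis) against the mean FPKM of both groups (horizontal log axis); grey points are 12262 genes that passed the limit of 1 FPKM, coloured points are the members of the 4 lists, and 120 genes lie outside the axes. Of the 74 members 72 lie above 0, and the grey points of 100 FPKM or more have a median of 0.084.

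In the mitochondrial large subunit 29 of 31 members were higher in the pLVX-*RBP4* group, and 13 were at least 1.2-fold higher. The exceptions were *MRPL44*, whose protein carries a ribonuclease III-like domain, with 12.51 and 12.46 FPKM and a log2 difference of -0.0059, and *MRPL54*, with 15.4 FPKM in CTRL GCs and 14.8 FPKM in pLVX-*RBP4* GCs and a log2 difference of -0.056. Both were higher in the pLVX-*RBP4* group when the values were rescaled to a common sum (TPM). Without the gene of the highest value this rescaling gave 7 lower members, the added ones being *MRPL2*, *MRPL4*, *MRPL10*, *MRPL28* and *MRPL38*, and 8 at least 1.2-fold higher, beside 5.06% of all genes. Without *MRPL1*, 12 of 30 were at least 1.2-fold higher as deposited, with a median of 0.24.

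*MRPL1* (ENSSSCG00000008990), the protein of the mobile stalk at the exit side for transfer RNA, had 16.7 FPKM in CTRL and 26.6 FPKM in pLVX-*RBP4* GCs. Its log2 difference of 0.64, a ratio of 1.60, was the largest of all 74 members and the only one past 1.5-fold on this scale. It ranked 136th among the 12382 genes. *MRPL1* was a member through the study's tables only, so its first place follows in part from how it was included. Among the 71 members with an Ensembl name the largest log2 difference was 0.53. *MRPL52* (ENSSSCG00000002040) had 16.0 and 23.5 FPKM, a log2 difference of 0.53. *MRPL50* (ENSSSCG00000027974) had 2.88 and 4.55 FPKM, a log2 difference of 0.52. Since the added 1 weighs on such low values, the ratio of *MRPL50* without it was 1.58, close to that of *MRPL1*.

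The next largest differences were also found at low levels. *MRPL39* had 9.02 and 13.1 FPKM, *MRPL47* had 4.596 and 6.69 FPKM, and *MRPL48* had 5.18 and 7.49 FPKM, with log2 differences of 0.49, 0.46 and 0.46. The 6 largest differences of the list thus all belonged to genes below 17 FPKM in the CTRL group. Over the 31 members the rank correlation of log2 difference with mean level was -0.28, a description over genes that share the same libraries. Other genes at low levels differed less, such as *MRPL35* with 5.85 and 6.56 FPKM, a log2 difference of 0.14.

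The most abundant genes of this subunit were *MRPL28*, with 132 FPKM in CTRL GCs and 139 FPKM in pLVX-*RBP4* GCs, *MRPL22*, with 69.5 and 87.8 FPKM, and *MRPL24*, with 58.9 and 69.3 FPKM. Their log2 differences were 0.076, 0.33 and 0.23. *MRPL2*, a protein of the peptidyl transferase region, had 62.6 and 64.7 FPKM, a log2 difference of 0.046. High level and difference thus did not go together in these genes.

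Of the stalk that recruits elongation factors in mitochondria, *MRPL10* was found, with 30.0 FPKM in CTRL and 32.1 FPKM in pLVX-*RBP4* GCs, a log2 difference of 0.094, and *MRPL12* was not found by symbol. *MRPL45*, which ties the ribosome to the inner membrane, had 39.5 and 43.5 FPKM, a log2 difference of 0.14. *MRPL13* had 28.9 and 39.4 FPKM and *MRPL30* had 42.4 and 56.1 FPKM, with log2 differences of 0.44 and 0.40. Of the genes past 1.2-fold not yet named, *MRPL17*, *MRPL18*, *MRPL19* and *MRPL43* had log2 differences from 0.28 to 0.31. The other 10 members, *MRPL3*, *MRPL4*, *MRPL9*, *MRPL11*, *MRPL15*, *MRPL16*, *MRPL38*, *MRPL46*, *MRPL49* and *MRPL55*, had log2 differences from 0.086 to 0.26.

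**Figure D3:**
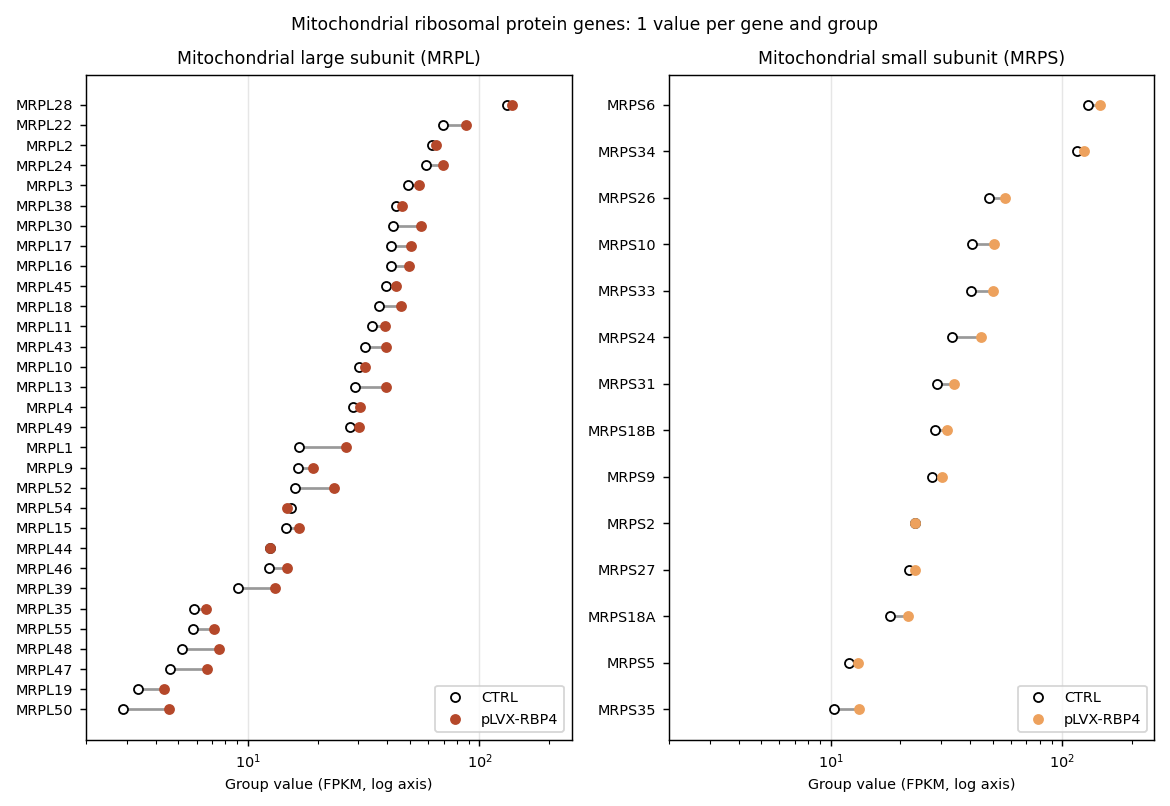
Values of the 45 mitochondrial ribosomal protein genes, drawn with 1 row per gene, FPKM on a log axis, open circles for the CTRL group and filled circles for the pLVX-RBP4 group, with no error since each is 1 value per group. The filled circle lies to the left only for MRPL44 and MRPL54, and the longest lines belong to genes such as MRPL1, MRPL52 and MRPL50.

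In the mitochondrial small subunit all 14 members were higher in the pLVX-*RBP4* group and 4 were at least 1.2-fold higher. *MRPS24*, the counterpart of the bacterial protein at the messenger RNA entry, had 33.4 FPKM in CTRL GCs and 44.6 FPKM in pLVX-*RBP4* GCs, a log2 difference of 0.41. *MRPS35* had 10.3 and 13.3 FPKM, a log2 difference of 0.33. *MRPS33* followed with 40.3 and 50.0 FPKM and *MRPS10* with 40.8 and 50.5 FPKM, each with a log2 difference of 0.30. The count of 4 was 7 after rescaling to a common sum, where 17.7% of all genes were past this fold. It was 1 after doing so without the gene of the highest value, near the 5.06% of all genes.

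*MRPS6* and *MRPS34* stood apart by level. *MRPS6* had 129.6 FPKM in CTRL and 146 FPKM in pLVX-*RBP4* GCs, a log2 difference of 0.17, and *MRPS34* had 116 and 124 FPKM, a log2 difference of 0.089. *MRPS26* came next with 48.4 and 56.6 FPKM, a log2 difference of 0.22. The smallest differences belonged to *MRPS2*, with 23.0 and 23.2 FPKM and a log2 difference of 0.012, and to *MRPS27*, a pentatricopeptide repeat protein, with 21.7 and 23.2 FPKM and 0.087. *MRPS2* was lower in the pLVX-*RBP4* group after scaling to a common upper quartile, and *MRPS2*, *MRPS27* and *MRPS34* were lower after rescaling to a common sum without the gene of the highest value. The remaining 5 members, *MRPS5*, *MRPS9*, *MRPS18A*, *MRPS18B* and *MRPS31*, had log2 differences from 0.12 to 0.25. *MRPS18A*, which despite its name sits in the large subunit, had 18.0 and 21.5 FPKM, and counting it there gave medians of 0.25 and 0.17 for the large and small subunit.

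A part of the mitochondrial proteins descends from the bacterial ribosome and the rest was gained in mitochondria. The members were grouped by symbol number as a stand-in for this origin. Those numbered *MRPL1* to *MRPL36*, *MRPS2* to *MRPS21*, *MRPS24* and *MRPS28* were counted as having a bacterial counterpart. Origin was not checked gene by gene, so members such as *MRPL47*, counted as without one by its number, may be misplaced. Of the 26 members counted as having a counterpart all were higher in the pLVX-*RBP4* group. At least 1.2-fold higher were 9, with *MRPL1*, a member through the study's tables only, among them, and the median log2 difference was 0.19. Of the other 19, 17 were higher and 8 at least 1.2-fold higher, with a median of 0.25. Among all genes 50.2% were higher and 11.0% at least 1.2-fold higher. The middle range of the first group reached from 0.14 to 0.30 and overlapped that of the second, from 0.11 to 0.39, and both lower genes, *MRPL44* and *MRPL54*, were in the second.

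Set beside genes of their own level, most lists stood higher. In the band of mean FPKM from 10 to 100, where 10.1% of all genes were at least 1.2-fold higher, this held for 9 of 24 members of the mitochondrial large subunit and 4 of 12 of the small one. In the band from 1 to 10, with 11.1% of all genes, it held for 4 of 6 members, all of the mitochondrial large subunit. In the band of 100 or more it held for none of the 3 mitochondrial members, *MRPL28*, *MRPS6* and *MRPS34*. Past the upper quartile of all genes of the same band, which leaves 25.0% of all genes by construction, were 12 of 14 members of the cytoplasmic large, 6 of 15 of the cytoplasmic small, 24 of 31 of the mitochondrial large and 9 of 14 of the mitochondrial small subunit. Among those counted in the large subunits were *RPL23*, *RPL26* and *MRPL1*, members through the study's tables only. Counts by band were not made without them.

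**Figure D4:**
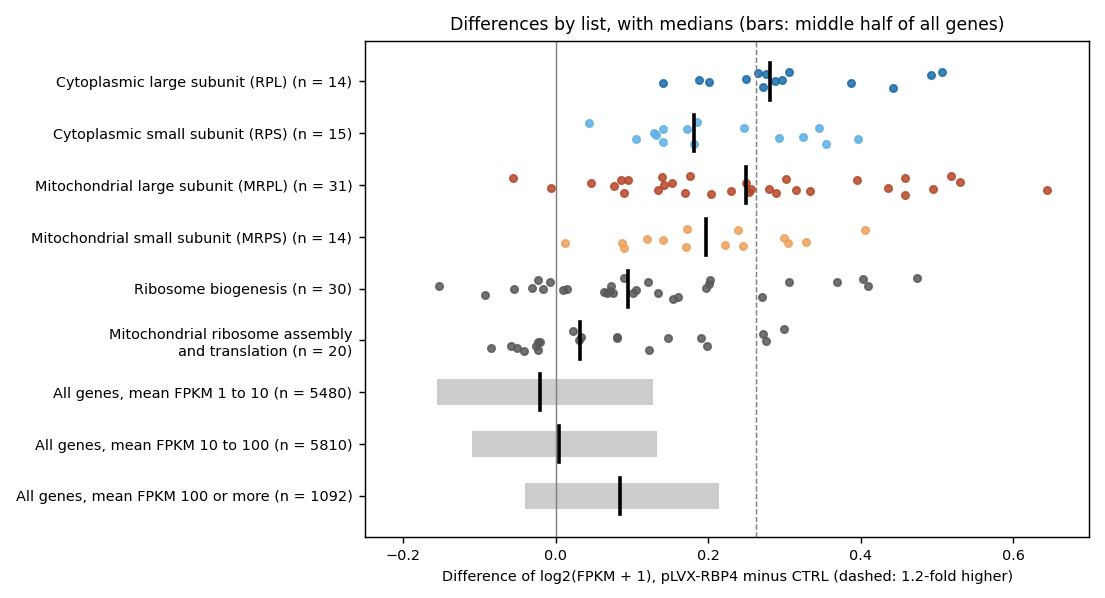
Log2 difference (pLVX-RBP4 minus CTRL) with 1 point per gene for the 4 lists of members and 2 lists of assembly genes; thick lines are medians, grey bars the middle range (lower to upper quartile) of all genes in 3 bands of level, the dashed line is 1.2-fold, and the vertical scatter of points has no meaning. The medians of the 4 member lists lie between 0.18 and 0.28 and those of the 2 assembly lists at 0.095 and 0.032.

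Genes that build the cytoplasmic ribosome without being a part of it were taken from a list of 40 nucleolar and assembly factors. Of these 33 were found and 30 passed the limit of 1 FPKM. In the pLVX-*RBP4* group 23 of the 30 were higher and 7 lower, with a median log2 difference of 0.095. At least 1.2-fold higher were 6, or 20%, and 0 were at least 1.2-fold lower. Of all genes 50.2% were higher, 11.0% at least 1.2-fold higher and 8.63% at least 1.2-fold lower. *NPM1*, an abundant nucleolar chaperone, had 340 FPKM in CTRL GCs and 473 FPKM in pLVX-*RBP4* GCs, a log2 difference of 0.47. *RSL24D1*, a factor of large subunit assembly, had 9.80 and 13.3 FPKM, a log2 difference of 0.41. The lowest values were those of *POLR1A*, the largest subunit of RNA polymerase I, with 12.2 and 10.8 FPKM and a log2 difference of -0.15, and *HEATR1*, with 7.76 and 7.22 FPKM and -0.092.

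For the mitochondrial ribosome, a list of 32 assembly and translation factors gave 20 genes, all past the limit of 1 FPKM. In the pLVX-*RBP4* group 12 of them were higher and 8 lower, beside 50.2% of all genes that were higher, with a median log2 difference of 0.032. At least 1.2-fold higher were 3, or 15%, which lay near the 11.0% of all genes. At least 1.2-fold lower were 0, beside 8.63% of all genes. *MTRF1L*, a release factor, had 5.27 and 6.72 FPKM, a log2 difference of 0.30, and *MRRF*, which recycles ribosomes, had 13.8 and 16.9 FPKM, a log2 difference of 0.28. *MTRF1*, another release factor, had 4.34 and 4.04 FPKM, a log2 difference of -0.085, and *DHX30*, a helicase, had 13.5 and 12.9 FPKM and -0.059, which was above 0 after rescaling to a common sum. The median of these factors was lower than the 0.23 of the 45 mitochondrial members, and the difference between the lists was not tested.

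The share of the members in the summed FPKM was described because 1 gene took a large part of that sum. ENSSSCG00000025162, for which no symbol was found, held 35.4% of the sum in CTRL and 25.8% in pLVX-*RBP4* GCs. Without it, the 29 cytoplasmic members made up 5.08% of the sum in CTRL GCs and 5.51% in pLVX-*RBP4* GCs. The sum over the cytoplasmic members was 1.18 times higher in the pLVX-*RBP4* group, and that over the mitochondrial members 1.16 times.

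Each scaling multiplies the values of a group by 1 factor and so moves the log2 differences of all genes nearly alike. The median log2 difference of all genes was -0.033 after scaling to a common upper quartile, 0.073 after rescaling to a common sum, and -0.11 when the gene of the highest value was left out of that sum. The distance of a list from the median of all genes is therefore nearly fixed by construction and is given as a description. It was 0.27 to 0.29 for the cytoplasmic large, 0.17 to 0.19 for the cytoplasmic small, 0.24 to 0.25 for the mitochondrial large and 0.19 to 0.20 for the mitochondrial small subunit.

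**Figure D5:**
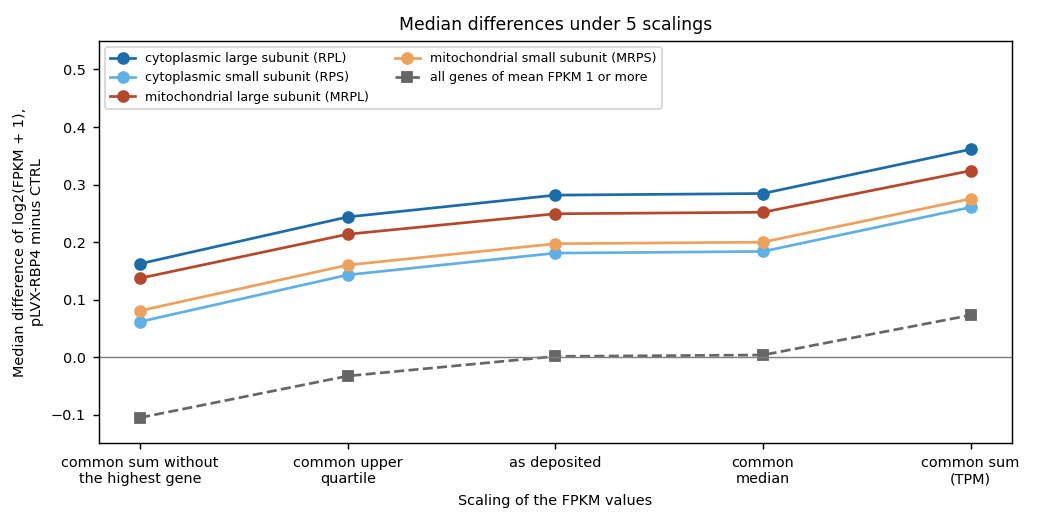
Median log2 difference (pLVX-RBP4 minus CTRL) of the 4 lists of members (circles) and of all genes past the limit of 1 FPKM (squares, dashed line) for the deposited values and 4 scalings. The lines run side by side because each scaling is 1 factor per group, and the medians of the members stay above 0 and above that of all genes, which runs from -0.11 to 0.073.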

How the data were processed

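Paired-end reads of 6 libraries were filtered by the authors, aligned to Sscrofa10.2 with TopHat2 and quantified with Cuffdiff. The deposited values are FPKM, with 1 value per gene and group, so the 3 libraries of a group cannot be separated. Versions and the annotation release are not given in the sources used here. Both columns of values were used and 0 were left out. FPKM divides by transcript length, and most ribosomal proteins are short; transcript lengths were not analysed here, nor were promoter or protein sequences.

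Symbols came from a table of Ensembl names for 10489 genes and from the study's tables for 268. The log2 difference was computed with a pseudocount of 1 for genes whose mean FPKM over the groups was 1 or more. A gene counted as called past 1.2-fold. No model was fitted and no p-value computed, since 1 value per group leaves no replicates; the planned comparison of promoter and protein sequence and of protein length could not be made. The counting was tested on simulated data.

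Named by rule were, in each list, the 3 largest increases, the 3 smallest or most negative differences and the 3 highest levels, the lower members, the stalk proteins, *RPL26* with *RPL26L1*, and the 2 ends of each assembly list with 2 genes each. The other members, and the limit of 300 FPKM, were named or set after their values were seen. Some members of the cytoplasmic small subunit are counted but not reported by name. The members, lists and 1.2-fold limit were chosen with earlier results of these data known. The alternatives were 2 other pseudocounts (0.1 and none), no filter, a limit of 5 FPKM, 4 scalings, the mean in place of the median, *MRPS18A* counted in the large subunit and, chosen after seeing the data, the lists without the 4 related copies or without the members named in the study's tables only. Calculations used Python 3.11.15, numpy 2.4.6 and pandas 2.3.3.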

Additional observations from a re-analysis of the deposited data

How the results depend on the processing

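The median log2 difference stayed above 0 for all 4 lists under each alternative run. Rescaling to a common sum without the gene of the highest value, which lowers all genes by 0.11 in the median, moved the medians to 0.16 (cytoplasmic large), 0.062 (cytoplasmic small), 0.14 (mitochondrial large) and 0.081 (mitochondrial small subunit), and the members at least 1.2-fold higher to 4, 1, 8 and 1, beside 5.06% of all genes in place of 11.0%, a share that the counts of both small subunits lay near. Scaling to a common upper quartile gave 5 such members of the cytoplasmic large subunit (8.65% of all genes), and rescaling to a common sum gave 7 of the mitochondrial small subunit (17.7% of all genes). The other pseudocounts, the filters, the common median, the mean, *MRPS18A* counted in the large subunit, and the lists without related copies or without members named in the study's tables only moved no median by 0.1 or more and no count by over 1.5 times. No paired analysis was possible because the table holds 1 value per gene and group, and for the same reason no library could be left out. The table holds no counts, so the precision of a value cannot be stated.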

Other observations

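Known ribosomal proteins with other names are no members of the lists, and 5 were found. *RACK1*, a scaffold on the cytoplasmic small subunit, had 1618 FPKM in CTRL and 1694 FPKM in pLVX-*RBP4* GCs, a log2 difference of 0.066. *FAU*, which encodes a protein of the same subunit fused to a ubiquitin-like domain, had 13.9 and 13.6 FPKM, a log2 difference of -0.029. Of the mitochondrial small subunit, *CHCHD1* had 8.83 and 11.9 FPKM (0.39), *PTCD3* 10.3 and 11.4 FPKM (0.13) and *DAP3* 3.58 and 3.68 FPKM (0.032). *FAU* thus lay far below the core genes of its ribosome, which were at 292 FPKM or more.

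The *RPS6K* kinases, which share a name but are enzymes, gave 8 genes past the limit of 1 FPKM. In the pLVX-*RBP4* group 1 of them was higher and 7 lower. Their median log2 difference was -0.058, and 0 were past 1.2-fold in either direction. Of all genes 50.2% were higher, 11.0% at least 1.2-fold higher and 8.63% at least 1.2-fold lower. *RPS6KB1*, the kinase of ribosomal protein S6, was the higher one with 7.97 and 8.80 FPKM, a log2 difference of 0.13.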
